A study of Mus musculus with 4 samples.

Results

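The peroxisome genes described here are 35 genes for the assembly of the organelle and for the oxidation and lipid synthesis that take place in it. They come from a list of names drawn up with earlier results of these data known, and the rule that matches them to the array uses no difference between genotypes: a probe set had to list exactly 1 symbol equal to a name on the list, and the probe set with the highest mean was kept for each gene. All 35 were found among the 22180 genes tested. Peroxisomes are small organelles bounded by a membrane. Peroxins, encoded by Pex genes, build the membrane and bring folded enzymes into the matrix, where very long and branched fatty acids are shortened, hydrogen peroxide is made and removed, and ether lipids are begun. Brown adipocytes carry many peroxisomes beside their mitochondria, and several peroxisomal genes are classical targets of the PPAR nuclear receptors.

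Expression was measured in brown adipose tissue (BAT) of male C57BL/6 mice at 4 months of age, all on chow. The groups are 2 wild-type (WT) samples and 2 samples with a knockout (KO) of Tsku, the gene of the secreted protein tsukushi. Each sample was hybridised to 1 whole-transcript array, and the values are normalized log2 levels. How the Tsku allele was made, and whether a sample is 1 mouse or a pool, is not given in the sources used here, and Tsku itself was not analysed because the annotation names no probe set for it, so the genotypes rest on the labels. The labels speak of biological replicates without naming separate animals. The p-values here therefore describe the spread among these 4 samples, part or all of which may be technical. In the limma fit each gene's variance is also drawn toward a value estimated over all genes.

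Array medians over all probe sets ran from 0.56 to 0.58. A gene was taken as above background where it exceeded a level that 95% of 1400 probe sets for olfactory or vomeronasal receptors stayed below on that array, between 0.63 and 0.81. Of the markers of brown adipocytes, 9 of 10 were above background on all 4 arrays, the exception being Elovl3, which elongates fatty acids. Among the peroxisome genes 34 of 35 were above background on all 4 arrays. The exception, Acox2, was below it on all 4.

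Acaa1b and Abcd2 were the members that stood highest in the knockout. Acaa1b encodes a 3-ketoacyl-CoA thiolase, the last enzyme of a turn of peroxisomal beta-oxidation, and Abcd2 a membrane transporter that brings very long acyl-CoA into the organelle. Their signals were 2.21-fold and 1.66-fold those of wild type (n = 2 arrays a genotype). In bulk tissue such as this, a change in the number of cells of a type and a change in RNA per cell cannot be told apart. Catalase, the bifunctional protein Hsd17b4 and the carrier thiolase Scp2 each differed by less than 0.10 on the log2 scale. In limma, with p-values adjusted over all genes by Benjamini-Hochberg, 0 of 35 members had an adjusted p under 0.05, and so did 0 of 22180 genes (0%).

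At an unadjusted p under 0.05 there were 2 of 35 members higher in the knockout, against 2.89% of all genes. There were 0 of 35 lower, against 2.67% of all genes. The knockout arrays both lay above the wild-type arrays for 9 of 35 members, where the same held for 19.4% of all genes. They both lay below for 1 of 35, against 15.8% of all genes. The members' median log2 difference was 0.043, with 25 higher and 10 lower, beside a median of 0.016 over all genes tested, of which 52.6% were higher. Of the 9921 genes above background on all 4 arrays, 372 were higher and 355 lower at an unadjusted limma p under 0.05. Both knockout arrays lay above both wild-type arrays for 1870 of these genes and below for 1751. Their median log2 difference was 0.0067, and 51% were higher. The shares of the members were not tested against those of either set.

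**Figure D1:**
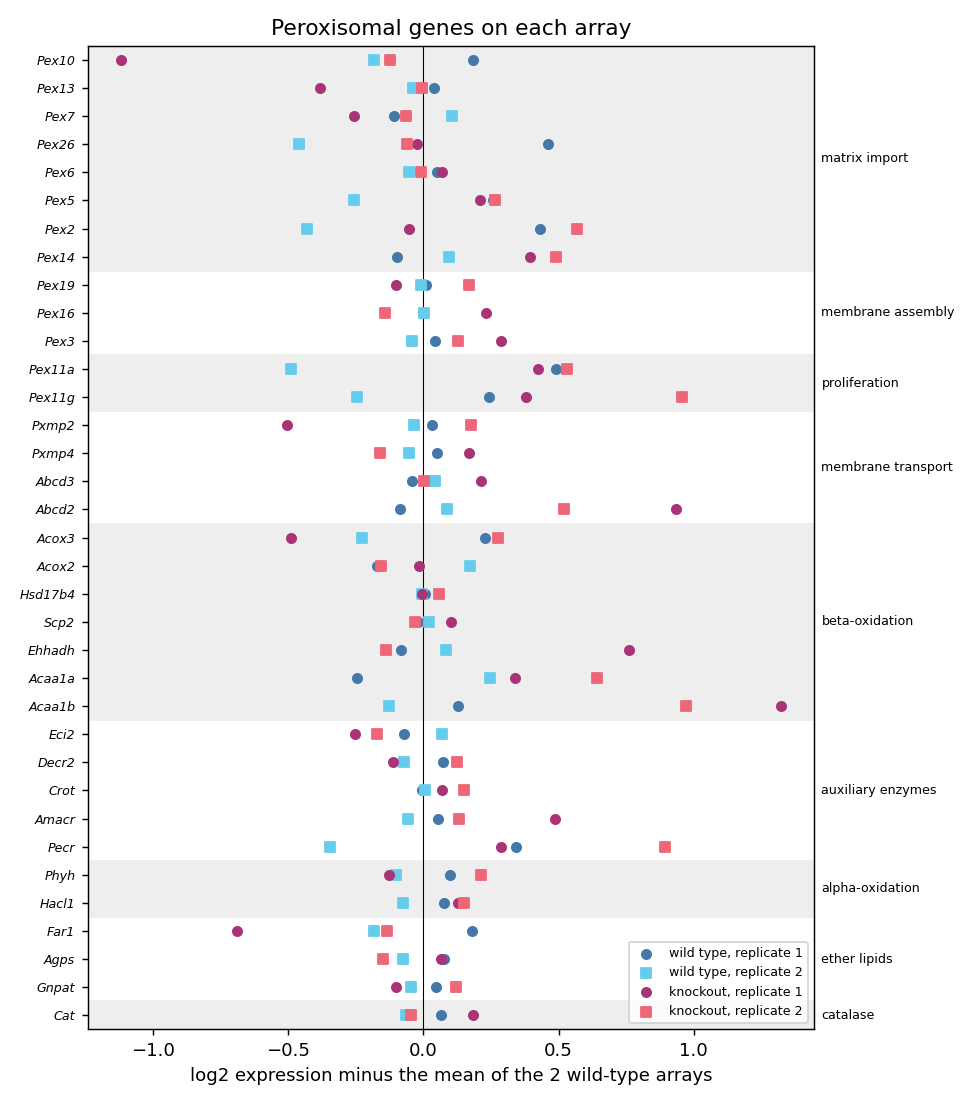
Each row is a peroxisome gene, grouped by role, and each point is 1 array's log2 level minus the mean of the 2 wild-type arrays (blue, wild type; red and purple, knockout; circles replicate 1, squares replicate 2). Both knockout points lie clear of the wild-type points for Acaa1b and Abcd2, while for most genes the 4 arrays are mixed.

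Acaa1b and its paralog Acaa1a encode near-identical thiolases and are neighbours in the genome, with 6 genes between them in the reference order, 4 of them protein coding. The windows at their starts are shown because Acaa1b gave the largest difference of the list and Acaa1a is its closest relative in it. Each runs from 250 bases before to 50 bases after the annotated start, 5′ to 3′ on the gene's strand, from RefSeq on GRCm38.p6. The Acaa1b window is chr9:119157044-119157343 on the minus strand and the Acaa1a window chr9:119341044-119341343 on the plus strand. Capitals mark the letters CCAAT, searched on both strands, so that ATTGG is the same motif read from the other strand.
Acaa1b: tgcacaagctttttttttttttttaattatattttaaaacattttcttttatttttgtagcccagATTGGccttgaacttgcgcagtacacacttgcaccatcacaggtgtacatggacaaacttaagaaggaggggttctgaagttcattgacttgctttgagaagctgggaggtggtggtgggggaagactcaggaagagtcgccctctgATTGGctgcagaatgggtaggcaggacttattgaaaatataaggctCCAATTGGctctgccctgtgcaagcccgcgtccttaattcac
Acaa1a: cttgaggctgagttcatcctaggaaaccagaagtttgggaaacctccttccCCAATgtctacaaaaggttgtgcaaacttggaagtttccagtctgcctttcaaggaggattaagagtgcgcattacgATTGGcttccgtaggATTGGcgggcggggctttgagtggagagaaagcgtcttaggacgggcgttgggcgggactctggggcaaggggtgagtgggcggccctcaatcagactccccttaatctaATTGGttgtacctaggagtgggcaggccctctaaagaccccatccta

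The windows were 51.8% identical in a global alignment with gaps (177 of 342 columns). No other pair of windows was aligned, so whether this share is high or low was not tested. Each thiolase window holds 4 matches to CCAAT, and in Acaa1b a pair of them overlap. Such a count was reached in 3 of 34 member windows (8.82%), Cat being the third, and in 1.06% of the 32851 windows in the table. The letters GGGCGG, the GC box, occur 3 times in Acaa1a and 0 times in Acaa1b. A GC box was found in 24 of 34 member windows (70.6%) and in 35.7% of all windows. The 34 member windows belong to 29 members. CG dinucleotides number 10 in Acaa1a and 4 in Acaa1b.

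PPAR receptors bind with RXR to a direct repeat spaced by 1 base, AGGTCANAGGTCA. No member window holds it exactly on either strand. With up to 2 mismatches among the 12 fixed letters it was found in 2 of 34 member windows (5.88%), against 3.86% of all windows. The Cat match, AGGTCAgAGaaCA at chr2:103485345-103485357 on the minus strand, and the Acox2 match, AGGaCAgAGGTgA at chr14:8258818-8258830 on the minus strand, are shown with mismatched letters and the spacer in lower case. Neither thiolase window holds such a match, which says only that these letters are not in these 300 bases. Abcd2, Amacr, Hsd17b4, Pex2, Pex19 and Pxmp2 had no window in the table.

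The beta-oxidation enzymes held the largest difference. Acaa1b read 2.41 and 2.16 in wild type against 3.61 and 3.26 in the knockout. Every knockout value lay above every wild-type value, and the gap between the genotypes exceeded the gap within either. The log2 difference was 1.15 (SE 0.22, 95% interval 0.61 to 1.68), or 2.21-fold, with a limma adjusted p of 0.872. Leaving out single arrays gave 0.97 to 1.32, and the lowest limma adjusted p under any setting was 0.303, without wild-type replicate 1, where the lone wild-type array is assumed to vary like the knockout arrays.

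Acaa1a read 2.01 and 2.50 in wild type against 2.59 and 2.90 in the knockout. The genotypes did not overlap, but the upper wild-type value lay only 0.093 below the lower knockout value. Knockout minus wild type, the log2 difference was 0.49 (SE 0.24, 95% interval -0.11 to 1.09, limma adjusted p = 0.872), or 1.40-fold. Without wild-type replicate 1 it was 0.24, and without wild-type replicate 2 it was 0.73. The paralogs are alike enough for transcripts of 1 gene to bind probes of the other, and the probe sequences were not used here, so the split of signal between Acaa1a and Acaa1b is uncertain.

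The genes between the thiolases gave smaller differences. Oxsr1, a kinase gene, and Myd88, an adaptor of innate immune signalling, were above background on all 4 arrays and differed by -0.036 and -0.28. Slc22a13, above background on 2 of 4 arrays, differed by 0.28. Slc22a14 and Slc22a13b, above background on 0 arrays, differed by 0.092 and 0.35, and Gm10608 was not measured.

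Ehhadh encodes the L-bifunctional protein, which carries out the hydration and dehydrogenation before the thiolase step. It read 4.14 and 4.30 in wild type against 4.98 and 4.08 in the knockout. Knockout replicate 1 alone was high, and knockout replicate 2 was the lowest of the 4 arrays. The log2 difference of 0.31 (95% interval -0.47 to 1.09) therefore turned to -0.14 without knockout replicate 1.

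The parallel D-bifunctional enzyme, Hsd17b4, gave 7.86 and 7.85 in wild type against 7.85 and 7.91 in the knockout. Scp2, which encodes the thiolase for branched chains together with a sterol carrier protein, gave 7.72 and 7.76 against 7.84 and 7.71. These were among the tightest members, the range over the 4 arrays being 0.063 and 0.13. Genotypes differed by 0.027 (95% interval -0.41 to 0.47) for Hsd17b4 and by 0.035 (-0.41 to 0.48) for Scp2. A fold of up to 1.38 and 1.40 therefore lies within the intervals. Their width comes largely from the variance estimated over all genes, not from the 4 values of either gene.

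Acox3, the oxidase that starts the breakdown of branched chains, read 3.51 and 3.05 in wild type against 2.79 and 3.56 in the knockout. The knockout arrays bracketed both wild-type arrays, and the difference of -0.11 had an interval from -0.87 to 0.66. Acox2, the oxidase for branched chains and bile acid intermediates, was below background on every array, and no fold is given.

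The auxiliary enzymes prepare unusual acyl-CoA for the pathway or carry its products away. Pecr, a trans-enoyl-CoA reductase, read 2.89 and 2.20 in wild type against 2.84 and 3.44 in the knockout. The lower knockout array overlapped wild type. The log2 difference was 0.59 (SE 0.32, 95% interval -0.19 to 1.38, limma adjusted p = 0.886), and 0.25 without wild-type replicate 2.

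Amacr, the racemase that turns branched acyl-CoA into the form that the oxidases accept, read 3.56 and 3.45 in wild type against 3.99 and 3.64 in the knockout. The groups did not overlap, by a margin of 0.078, and the difference was 0.31 (95% interval -0.20 to 0.82). Without knockout replicate 1 it was 0.13.
Eci2, the isomerase that moves misplaced unsaturated bonds, was the only member with both knockout arrays below both wild-type arrays. It read 5.38 and 5.53 in wild type against 5.20 and 5.28 in the knockout, a difference of -0.21 (95% interval -0.66 to 0.24). Crot, which joins medium chains to carnitine for export to mitochondria, read 5.96 and 5.97 against 6.03 and 6.11, a difference of 0.11. Decr2, the dienoyl-CoA reductase, differed by 0.0074, with overlapping arrays.

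Among membrane proteins Abcd2 stood apart from its relative Abcd3. Abcd2 read 6.88 and 7.05 in wild type against 7.90 and 7.49 in the knockout. Both knockout arrays were higher, replicate 1 by more than replicate 2. Between genotypes the log2 difference was 0.73 (SE 0.22, 95% interval 0.19 to 1.27), or 1.66-fold, with a limma adjusted p of 0.872. It was 0.52 without knockout replicate 1 and 0.94 without knockout replicate 2.

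Abcd3, a major ATP-binding cassette protein of the peroxisome membrane in many tissues, read 7.26 and 7.34 in wild type against 7.51 and 7.30 in the knockout. The arrays overlapped and the difference was 0.11 (95% interval -0.36 to 0.58). Whether Abcd2 and Abcd3 differ from each other in response was not tested. Pxmp2, a channel for small solutes, read 4.47 and 4.41 in wild type against 3.94 and 4.62 in the knockout, and Pxmp4, another integral membrane protein, differed by 0.0057. Of these, Pxmp2 showed a low value on knockout replicate 1 alone.

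**Figure D2:**
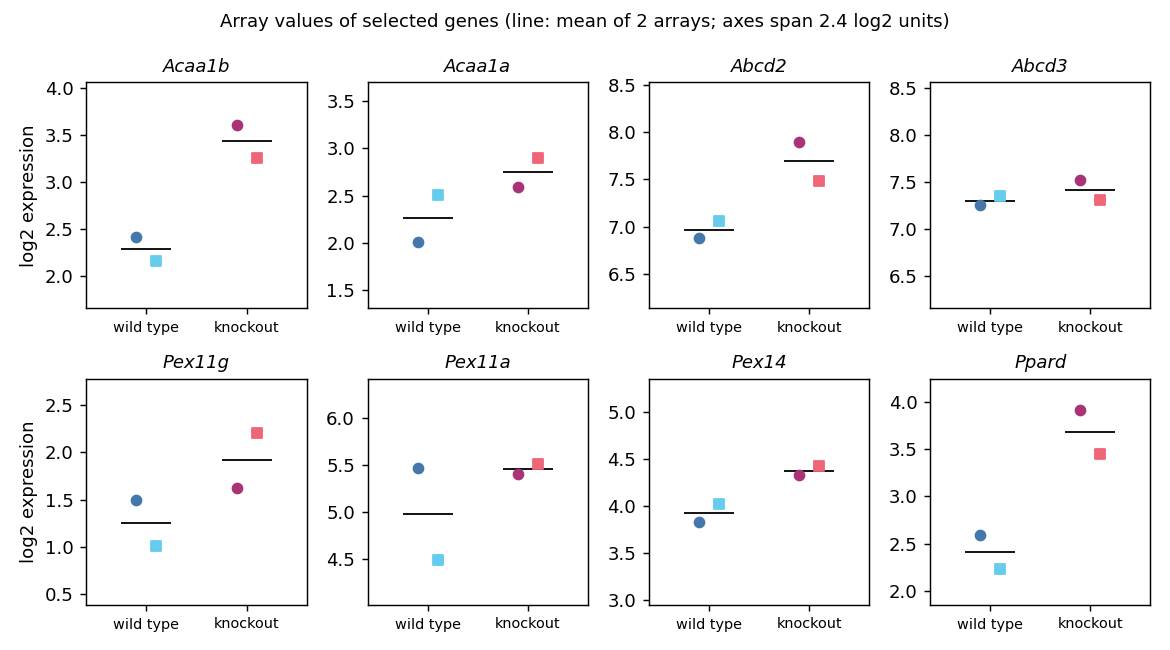
Log2 levels on the 4 arrays for 7 members and Ppard, with wild type at the left and knockout at the right of each panel (circles replicate 1, squares replicate 2, lines the mean of 2 arrays) and all axes spanning the same range. The genotypes do not overlap for Acaa1b, Acaa1a, Abcd2, Pex11g, Pex14 and Ppard, by a margin of only 0.093 for Acaa1a and 0.13 for Pex11g. They overlap for Abcd3, and Pex11a is low on wild-type replicate 2 alone.

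The 13 peroxins had a median log2 difference of 0.045, with 9 higher and 4 lower. The Pex11 proteins lengthen and divide peroxisomes. Pex11g read 1.49 and 1.005 in wild type against 1.63 and 2.21 in the knockout. The knockout arrays were higher by a margin of 0.13 at the nearest pair, at a level not far above background. The log2 difference was 0.67 (SE 0.28, 95% interval -0.025 to 1.36, limma adjusted p = 0.872), or 1.59-fold, and 0.38 without knockout replicate 2.

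Pex11a, the form that PPAR agonists induce, read 5.46 and 4.48 in wild type against 5.40 and 5.50 in the knockout. Here 3 arrays lay together and wild-type replicate 2 lay about 1 log2 unit below them. The log2 difference of 0.48 (SE 0.34, 95% interval -0.35 to 1.30, limma adjusted p = 0.896) turned to -0.011 without that array.

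Matrix enzymes are recognised by the receptors Pex5 and Pex7, dock at Pex13 and Pex14, and the receptors are then ubiquitinated by a complex with Pex2 and Pex10 and pulled back out by Pex6, anchored at Pex26. Of these 8 genes 4 were higher and 4 lower, with a median of -0.0063. Pex14 read 3.84 and 4.03 in wild type against 4.33 and 4.42 in the knockout. The genotypes did not overlap, and the gap of 0.30 between the nearest arrays was wider than the gap within either genotype. The fitted log2 difference was 0.44 (SE 0.19, 95% interval -0.019 to 0.91, limma adjusted p = 0.872), or 1.36-fold, and 0.35 to 0.54 without single arrays.

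Its docking partner Pex13 read 4.44 and 4.36 in wild type against 4.02 and 4.39 in the knockout, a difference of -0.19 with knockout replicate 1 alone low. Pex10 read 3.12 and 2.76 in wild type against 1.82 and 2.82 in the knockout. Knockout replicate 1 was low by about 1 log2 unit and knockout replicate 2 lay between the wild-type arrays. The log2 difference was -0.62 (SE 0.36, 95% interval -1.49 to 0.25, limma adjusted p = 0.888), and -0.12 without knockout replicate 1.

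Pex2, its partner in the ligase, read 3.30 and 2.44 in wild type against 2.82 and 3.44 in the knockout, a difference of 0.26 with overlapping arrays. Pex5 read 4.07 and 3.56 against 4.02 and 4.08, and Pex26 read 2.99 and 2.07 against 2.50 and 2.47. In these 3 genes wild-type replicate 2 was the lowest array, and the wild-type gap, from 0.51 to 0.92, exceeded the difference between genotypes. Pex7 differed by -0.16 and Pex6 by 0.031.

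Pex3, Pex16 and Pex19 bring proteins into the peroxisome membrane itself. Pex3 read 7.24 and 7.16 in wild type against 7.49 and 7.33 in the knockout. The knockout arrays were both higher, with a difference of 0.21 (95% interval -0.25 to 0.66). Pex16 and Pex19 differed by 0.045 and 0.034, with overlapping arrays.

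Alpha-oxidation removes a carbon from chains that a methyl group blocks. Phyh, its first enzyme, read 7.82 and 7.62 in wild type against 7.59 and 7.93 in the knockout, a difference of 0.043. A second Phyh probe set, dimmer and therefore not kept, read 2.62 and 2.52 against 1.44 and 2.32, a difference of -0.69, so the probe sets of this gene disagree. Hacl1, the lyase of the pathway, read 5.13 and 4.97 in wild type against 5.18 and 5.20 in the knockout, a difference of 0.14 with both knockout arrays higher.

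Ether lipid synthesis starts in the peroxisome with Gnpat and Agps, and Far1 supplies the fatty alcohol and limits its rate. Far1 read 4.40 and 4.04 in wild type against 3.53 and 4.09 in the knockout. Knockout replicate 1 was low and knockout replicate 2 lay between the wild-type arrays. Knockout minus wild type, the log2 difference was -0.41 (95% interval -1.05 to 0.23, limma adjusted p = 0.895), and -0.13 without knockout replicate 1. Gnpat differed by 0.0089 and Agps by -0.042. Cat, the catalase that destroys hydrogen peroxide, read 10.03 and 9.90 in wild type against 10.15 and 9.92 in the knockout, a difference of 0.069 (95% interval -0.41 to 0.54).

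**Figure D3:**
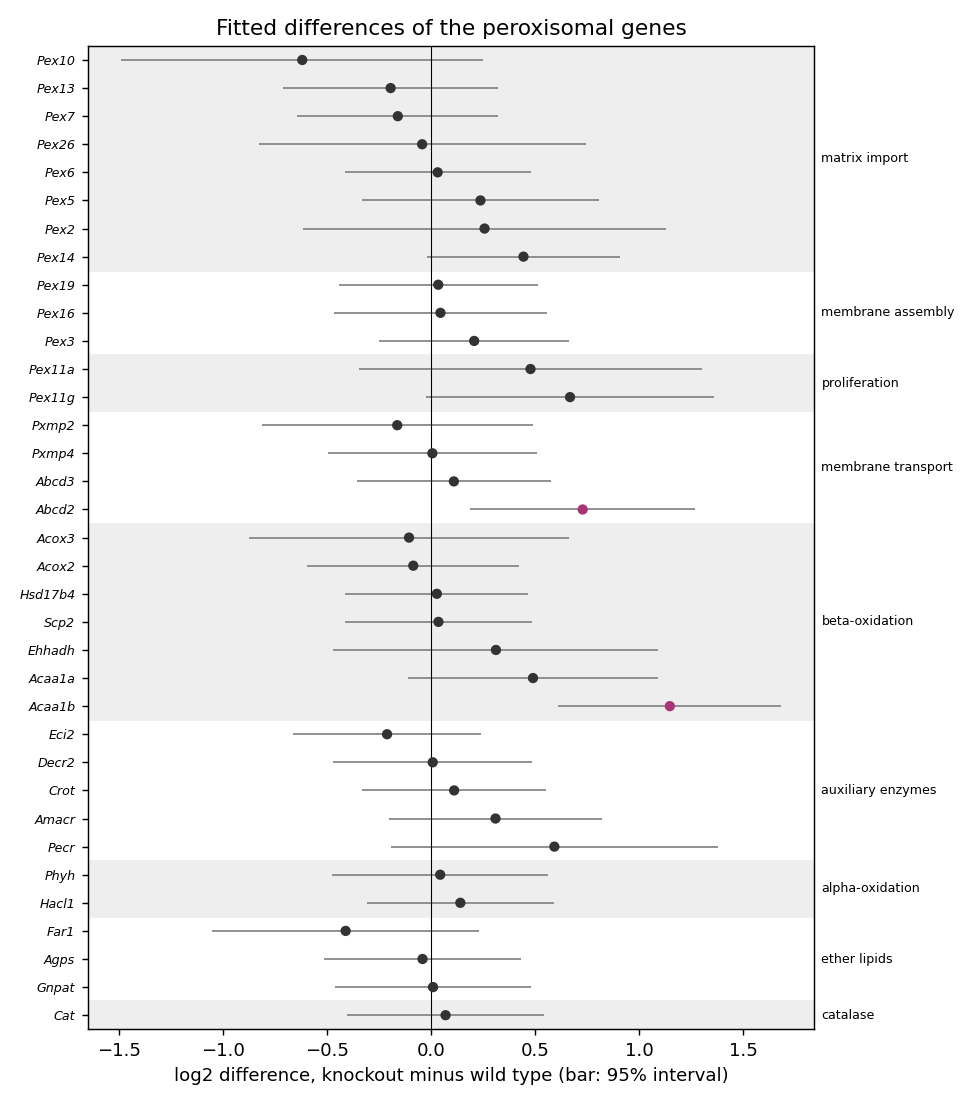
Fitted log2 differences, knockout minus wild type, of the 35 members by role, with bars for the 95% interval from limma over 2 arrays a genotype. Acaa1b and Abcd2 (purple) have intervals above 0; all other intervals include 0.

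Differences were wider among the dim members. Split at the members' median level of 4.38, the 18 brighter members had a median absolute difference of 0.089 and a median SD within a genotype of 0.10. The 17 dimmer members had 0.26 and 0.26. Among all genes above background on all 4 arrays the same split gave 0.15 and 0.12 for the brighter genes and 0.23 and 0.21 for the dimmer ones. An absolute difference over 0.3 was found in 3 of the 18 brighter members, which were Abcd2, Pex11a and Ehhadh, and in 8 of the 17 dimmer ones. The corresponding shares of all such genes were 19.0% and 37.1%. Abcd2 was the brighter member with the widest difference, whereas Acaa1b, Pex11g, Pecr and Pex10 were dim.

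**Figure D4:**
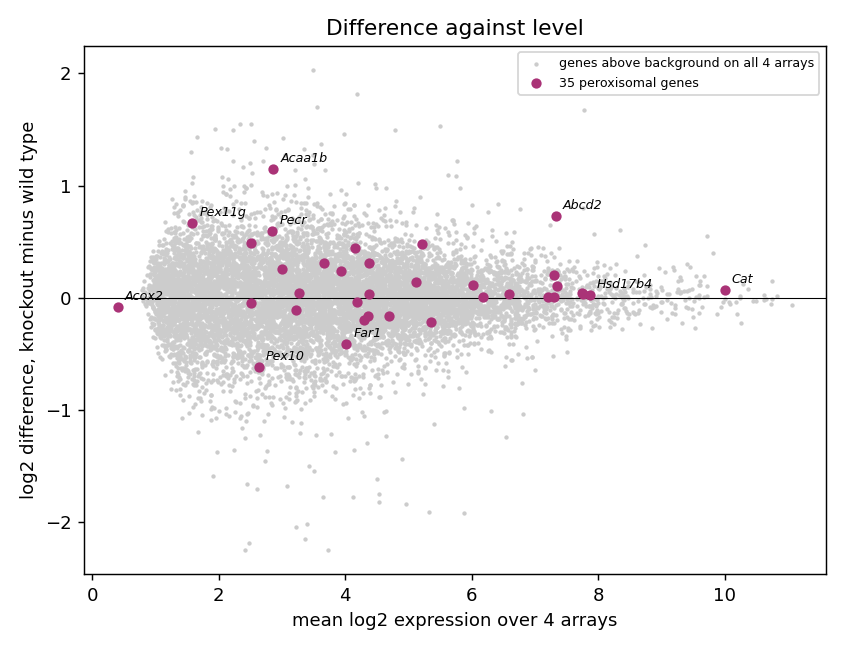
Log2 difference (knockout minus wild type) against mean log2 level over 4 arrays for the members (purple) and for genes above background on all 4 arrays (grey). Dim genes spread more widely than bright ones, and most bright members other than Abcd2 sit near 0.

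The members as a list shifted little between arrays. Taken as deviations from each gene's own average, the median over members was 0.029 and -0.067 for wild type and 0.045 and 0.091 for the knockout. Wild-type replicate 2 gave the lowest value for 13 of 35 members and knockout replicate 1 for 11. The same arrays were lowest for 33.5% and 31.1% of the genes above background on all 4 arrays, so this feature was shared with the array as a whole. Knockout replicate 2 gave the highest value for 16 members and knockout replicate 1 for 11, or 45.7% and 31.4%, where the shares among genes above background were 28.6% and 23.0%.

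Other genes of the organelle were taken from a list of 56, of which 47 were measured. The other 9 were not analysed here. Of the 47, 32 were higher and 15 lower with a median log2 difference of 0.069, and 0 had an adjusted p under 0.05 in limma. At an unadjusted p under 0.05 there were 2 higher and 1 lower of 47, against 2.89% and 2.67% of all genes, and these 3 are described only as values. Acot3, a peroxisomal acyl-CoA thioesterase, read 0.65 and 0.32 in wild type against 1.13 and 1.25 in the knockout, a difference of 0.71 (95% interval 0.21 to 1.21) at the edge of background, since only 1 of its 2 wild-type arrays was above it. Acbd4, an acyl-CoA binding protein that ties peroxisomes to the endoplasmic reticulum, read 3.06 and 3.10 against 3.59 and 3.49, a difference of 0.46. Fis1, an anchor for the division of peroxisomes and mitochondria, read 2.52 and 2.74 against 2.04 and 2.18, a difference of -0.52. All 3 had a limma adjusted p of 0.872.

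Of the receptors and coactivators that act on peroxisomal genes, Ppard, the delta form of PPAR, read 2.59 and 2.23 in wild type against 3.92 and 3.46 in the knockout. Both knockout arrays lay above both wild-type arrays, which held for 19.4% of all genes. The knockout level was 2.42-fold that of wild type, or 1.27 on the log2 scale (SE 0.25, 95% interval 0.67 to 1.88, limma adjusted p = 0.872). Whether Ppard bears on the levels of the members was not tested. Ppara, the receptor of fibrate drugs, differed by 0.078 (-0.39 to 0.55) and Pparg, the adipocyte receptor, by 0.091 (-0.39 to 0.57). Rxra, their partner, differed by 0.27 and turned to -0.064 without wild-type replicate 1. The coactivator genes Ppargc1a and Ppargc1b differed by 0.35 and -0.30. For Ppargc1a the difference was 0.026 without knockout replicate 1.

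The mitochondrial beta-oxidation genes, the neighbouring pathway, showed little difference as well. Of 17 measured, 11 were higher and 6 lower, with a median of 0.013 and a range from -0.26 to 0.38. Their median absolute difference was 0.081, where that of the peroxisome genes was 0.16 in all and 0.089 for the brighter 18. No test of the difference between the lists was made.

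Markers of other tissues differed between the same samples. Each of the 13 measured liver markers had a higher knockout mean, the median difference being 0.54. Their mean log2 level was 1.36 to 1.75 on the wild-type arrays and 1.76 to 2.51 on the knockout arrays. Only 6 of the 13 were above background on all 4 arrays, and Fgg was below it on all 4. The arrays of the genotypes overlapped for 8 of the 13. Alb, the serum albumin gene, read 3.68 and 2.87 in wild type against 5.77 and 4.41 in the knockout. Liver is rich in peroxisomes, and the thiolase Acaa1b and Ehhadh are strongly expressed there. Against the wild-type mean the liver median was 0.85 on knockout replicate 1 and 0.013 on knockout replicate 2. On the same arrays Ehhadh stood at 0.76 and -0.14 and Acaa1b at 1.32 and 0.97. Abcd2, which is not named here as a liver gene, stood at 0.94 and 0.52. The median over all 35 members was 0.070 and 0.13, and over the 7 beta-oxidation members 0.10 and 0.058. Scp2 stood at 0.10 and -0.031, and Hsd17b4 at -0.0035 and 0.058. The part of liver RNA in these differences was not tested.

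All 12 skeletal muscle markers had a lower knockout mean (median -1.87), and the arrays of the genotypes overlapped for 2 of the 12. Their mean levels were 3.85 to 4.60 in wild type and 1.74 to 2.93 in the knockout. Myot was below background on both knockout arrays. All 10 macrophage markers had a lower knockout mean (median -0.53), with mean levels of 4.13 to 4.33 and 3.29 to 4.05 and all of them above background on every array. Against the wild-type mean their median was -0.83 on knockout replicate 1 and -0.13 on knockout replicate 2, and 9 of the 10 were lowest on knockout replicate 1. Of the brown adipocyte markers 9 of 10 were higher (median 0.26), with mean levels of 6.77 to 6.80 and 7.19 to 7.22. Their part in the values of the peroxisome genes was not tested. Endothelial markers showed 3 higher and 3 lower, with a median of -0.033.

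**Figure D5:**
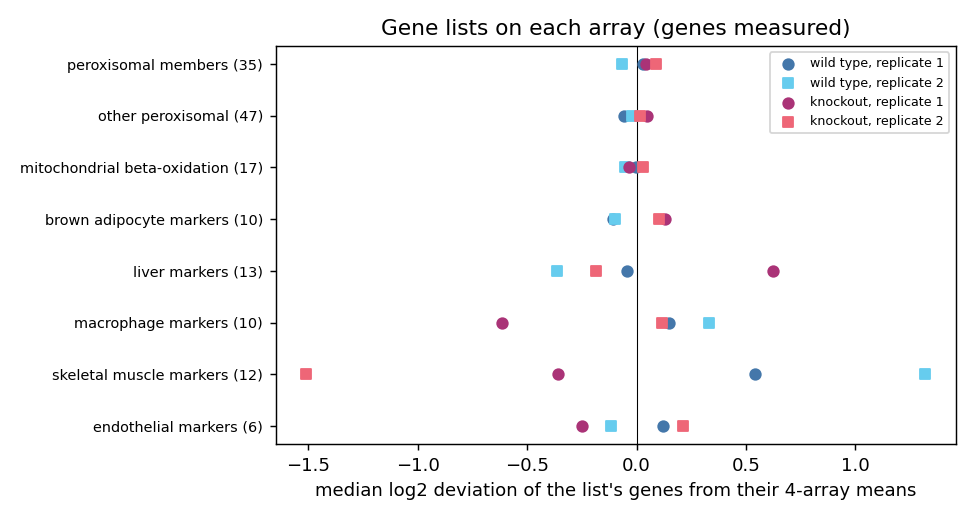
For each gene list (rows, with the number of genes measured) the median log2 deviation of its genes from their means over 4 arrays, 1 point per array. The peroxisomal and mitochondrial oxidation lists stay close to 0 on every array, while liver markers stand high on knockout replicate 1 and muscle markers range from 1.32 on wild-type replicate 2 to -1.51 on knockout replicate 2.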

How the data were processed

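The authors deposited a table of normalized log2 expression values for 41345 probe sets on 4 arrays. The submitters' processing notes list RMA, oligo and limma, giving neither role nor version; base 2 is taken from RMA, and the values lie below the usual range for a reason not given in the sources used here. Whether that step also affected differences, most of all of dim genes, was not tested. Gene symbols came from the annotation of the array platform: 23521 had 1 symbol, 1814 several and 16010 none listed, and only the first were used. The 22180 genes were fitted with limma 3.58.1 (R 4.3.3), lmFit and eBayes, two-sided, without a block or filter, with 2 residual and 3.96 prior degrees of freedom. The number of arrays limits the precision: the median half-width of a 95% interval was 0.52. The fit was tested on simulated data. The 2 against 2 design cannot give an exact permutation p under 0.333. Members, roles and lists were chosen with earlier results of these data known. All members are named; full values are given for those with an unadjusted p under 0.05 or among the 8 largest absolute differences, and other peroxisomal genes are named at an unadjusted p under 0.05. Elovl3, Fgg, Alb, Myot and the genes between the thiolases were named after their values were seen. No protein sequences were used here.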

Additional observations from a re-analysis of the deposited data

How the results depend on the processing

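The count of members past an adjusted p of 0.05 was 0 under all 11 alternative settings. The count of all genes past it, 0 in limma (642 higher and 592 lower at an unadjusted p under 0.05), was 1 with a replicate block, 1 with a mean trend, and 0 to 15 without single arrays (15 without wild-type replicate 1, 2 without wild-type replicate 2). Such fits leave 1 array in a genotype, which is assumed to vary like the other genotype. Same-numbered arrays did not deviate together (r = -0.073 across genes). The replicate block left 2 members with an unadjusted p under 0.05, that count was 1 with unmoderated variances and 2 to 4 without single arrays, 4 of them without wild-type replicate 1 or knockout replicate 2. The members' median was 0.0054 to 0.13 without single arrays and 0.035 without both thiolase genes, an alternative added after the data were seen.

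Of 35 members 16 kept their sign under all of them, 11 higher and 5 lower. Where the genotypes do not overlap, as for 9 members higher and 1 lower, leaving out an array cannot turn the sign. The count was not set beside one over all genes. The signs of 19 turned without some array. Their ranges without single arrays were -0.17 to 0.69 for Pex2, -0.020 to 0.49 for Pex5, -0.020 to 0.082 for Pex6, -0.011 to 0.97 for Pex11a, -0.14 to 0.23 for Pex16, -0.10 to 0.17 for Pex19, -0.50 to 0.42 for Pex26, -0.26 to 0.085 for Acox2, -0.49 to 0.27 for Acox3 and -0.14 to 0.76 for Ehhadh. They were -0.0035 to 0.058 for Hsd17b4, -0.031 to 0.10 for Scp2, -0.11 to 0.13 for Decr2, -0.044 to 0.18 for Cat, -0.13 to 0.21 for Phyh, -0.15 to 0.065 for Agps, -0.10 to 0.12 for Gnpat, -0.50 to 0.18 for Pxmp2 and -0.16 to 0.17 for Pxmp4. Among the regulators they were -0.014 to 0.17 for Ppara, -0.049 to 0.23 for Pparg and -0.064 to 0.60 for Rxra. Repeated quantile normalization gave -0.028 for Decr2, -0.0098 for Gnpat and -0.011 for Pxmp4. The mean of its probe sets gave -0.32 for Phyh, and single further probe sets gave -0.69 for Phyh and 0.15 for Acox3. Leaving out an array leaves fewer samples, and no other cause of these turns was tested.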
